A study of Homo sapiens with 9 samples.

Results

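The genes described here are the machinery of the DNA replication fork and of deoxynucleotide supply, 48 of the 23368 gene symbols in the count table. They were found by symbol from a named list, drawn up with earlier results of these data known, and all 48 had enough reads to be tested. RNA was sequenced from A673, an established Ewing sarcoma cell line whose growth is driven by the fusion protein EWS-FLI1. The 9 libraries came from 3 independent experiments in which the cells received 13 nM of a small interfering RNA (siRNA) by reverse transfection 48 h before RNA isolation. In siLRWD1-5 libraries (n = 3) and siLRWD1-6 libraries (n = 3) the siRNA targeted LRWD1, and in scrambled libraries (n = 3) it had a scrambled sequence. All groups were the same line, grown under Zeocin and blasticidin, with the same reagent, so each group is a transient knockdown of a single line and not a knockout. The series asked how siRNA against LRWD1 acts on the transcriptome, as part of a viability screen in EWS-FLI1-positive cells. The LRWD1 product, known as ORCA, is held to steady the origin recognition complex on chromatin.

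A replication fork starts when the MCM2-7 ring, loaded at origins in G1, is joined by CDC45 and the GINS complex and begins to unwind DNA. DNA polymerase alpha-primase lays primers, the clamp PCNA is put on by replication factor C, and polymerases delta and epsilon copy the strands from deoxynucleotides made by ribonucleotide reductase, thymidylate synthase and thymidine kinase. Many of these genes are transcribed as cells enter S phase and are known targets of E2F factors, and proliferating tumour lines such as A673 express them at high levels.

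The promoters of RFC2, MCM10, TIPIN and RRM2 are shown because RFC2 and MCM10 transcripts were lower with siLRWD1-5, TIPIN with both siRNAs and RRM2 with siLRWD1-6. Each runs from 250 bases before to 20 bases from the RefSeq transcription start (GRCh38.p14, 5′ to 3′ on the gene's strand), with matches to an E2F core word (TTCCCGC or TTGGCGC or TTCGCGC or TTGCCGC) or to CCAAT on either strand in capitals. RFC2 lies on the minus strand at chr7:74254380-74254649, and its match is an E2F core word at the start site.
RFC2: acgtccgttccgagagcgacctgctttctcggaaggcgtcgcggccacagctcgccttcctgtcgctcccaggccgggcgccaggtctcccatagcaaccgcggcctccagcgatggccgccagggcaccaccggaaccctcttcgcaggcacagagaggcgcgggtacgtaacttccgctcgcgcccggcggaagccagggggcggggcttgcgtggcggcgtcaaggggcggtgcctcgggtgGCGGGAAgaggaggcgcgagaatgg
MCM10 lies on the plus strand at chr10:13161308-13161577, and its capitals are a pair of CCAAT words.
MCM10: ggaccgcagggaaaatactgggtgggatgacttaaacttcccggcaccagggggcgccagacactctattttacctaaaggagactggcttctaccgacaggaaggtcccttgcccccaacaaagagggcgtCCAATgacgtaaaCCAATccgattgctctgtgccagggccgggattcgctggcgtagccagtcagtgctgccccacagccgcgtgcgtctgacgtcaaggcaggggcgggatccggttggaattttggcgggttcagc
TIPIN lies on the minus strand at chr15:66386698-66386967, with a single CCAAT word.
TIPIN: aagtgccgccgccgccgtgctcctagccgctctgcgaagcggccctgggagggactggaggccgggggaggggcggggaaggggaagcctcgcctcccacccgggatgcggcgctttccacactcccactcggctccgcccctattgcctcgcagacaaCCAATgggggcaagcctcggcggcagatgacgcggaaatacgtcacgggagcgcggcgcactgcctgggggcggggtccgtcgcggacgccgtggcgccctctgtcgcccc
RRM2 lies on the plus strand at chr2:10122318-10122587, at the most upstream of its annotated starts, with a CCAAT word and an E2F core word.
RRM2: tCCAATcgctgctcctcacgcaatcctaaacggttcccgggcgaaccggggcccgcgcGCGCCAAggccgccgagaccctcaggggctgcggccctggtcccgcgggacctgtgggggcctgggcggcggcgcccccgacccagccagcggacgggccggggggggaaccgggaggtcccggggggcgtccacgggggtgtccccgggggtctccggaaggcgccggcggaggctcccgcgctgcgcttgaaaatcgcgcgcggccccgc

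The RefSeq promoter table, which holds 300 bases per start (250 before and 50 from it), had an entry for 40 of the 48 genes. At least 1 of the E2F core words was present in 30 of these 40 promoters (75%), against 20.9% of the 9525 promoters of tested genes and 13% of all 35116 promoters in the table. CCAAT was present in 21 of the 40 (52.5%), against 36.8% of the promoters of tested genes and 34.6% of all promoters. Words that overlapped were merged into a single match. The E2F core share was much alike among genes that were lower with siLRWD1-5 (8 of 10 in the table) and genes that were not (22 of 30). A match is a run of letters and not a measured binding site, and a window without a match says nothing about binding of the factor.

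LRWD1 itself was measured at 10.6, 11.3 and 10.4 CPM (the count relative to the TMM-scaled library total) in siLRWD1-5 libraries, at 6.55, 8.11 and 8.55 CPM in siLRWD1-6 libraries and at 49.1, 54.6 and 49.3 CPM in scrambled libraries. Every library with an LRWD1 siRNA was below every scrambled library, with log2 fold changes of -2.24 for siLRWD1-5 (adjusted p = 9e-08) and -2.72 for siLRWD1-6 (adjusted p = 1.7e-07), both from the quasi-likelihood test of edgeR that gives all adjusted p-values below. LRWD1 was lower with siLRWD1-6 than with siLRWD1-5 (log2 fold change -0.48, adjusted p = 0.0058). Total counts ranged from 11971179 to 15674452 per library. The marker levels that follow are CPM on these plain totals, without TMM scaling. Of 10 markers of Ewing sarcoma, 9 were expressed well enough to be tested, among them NR0B1 at 21.5 to 51.2 CPM and NKX2-2 at 19.9 to 30.9 CPM, whereas CD99, which defines these tumours at the surface, was at 0 to 3.78 CPM. The counting settings are not stated and the reason for the low CD99 count was not tested, so it is no measure of absent expression. Of 15 markers of other cell types, 3 were tested: KRT18 at 55.8 to 88.3 CPM, THY1 at 88.3 to 115.7 CPM and PDGFRA at 0.93 to 3.59 CPM. KRT18 and THY1 were thus above NR0B1 and NKX2-2. CD3E and MYOD1 were at 0 in all libraries, and the other 10 did not exceed 1.04 CPM.

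Scrambled replicate 2 stood apart from the other scrambled libraries, in these genes and in others. In this library 47 of the 48 genes were below both other scrambled libraries, against 39.8% of all 13648 genes tested. The median difference of the 48 genes, scrambled replicate 2 minus the mean of scrambled replicates 1 and 3 in log2(CPM + 0.5), was -0.56, against 0.01 over all genes tested. The differences ran from -1.02 for CLSPN, -0.85 for RPA3, -0.79 for CDC45 and -0.79 for POLA1 to -0.26 for RPA2, -0.20 for GINS3, -0.12 for TIPIN and -0.12 for POLD2. CCNE2, at 0.11, was the single gene that was not below both. Across all genes, its counts gave a chi-square per gene of 29.6 and 25.1 against the other scrambled libraries, against 3.05 to 5.69 for the other pairs within a group.

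**Figure D1:**
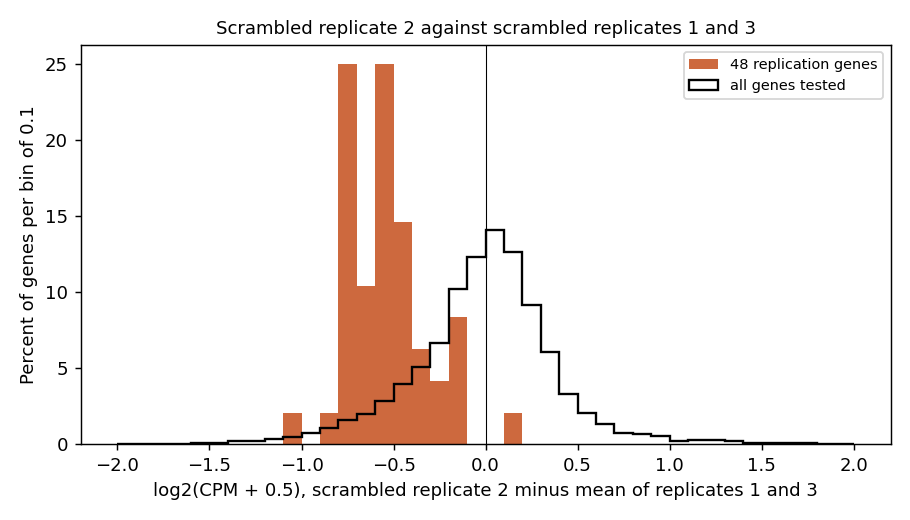
Distribution over genes of the log2(CPM + 0.5) difference of scrambled replicate 2 from the mean of scrambled replicates 1 and 3, as the percent of genes per bin of 0.1; filled bars are the 48 replication genes and the outline is all 13648 genes tested, of which 36 lie beyond the axis. The replication genes lie at a median of -0.56 and all genes at 0.01.

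The summed level of the 48 genes shows the same layout. It was 5384, 4821 and 5162 CPM in siLRWD1-5 libraries, 5430, 5276 and 5378 CPM in siLRWD1-6 libraries, and 4323 CPM in scrambled replicate 2 but 6424 and 6461 CPM in scrambled replicates 1 and 3. Every library with an LRWD1 siRNA was therefore between scrambled replicate 2 and the other scrambled libraries. Of the 48 genes, 29 had their lowest value of the 9 libraries in scrambled replicate 2 and 13 in siLRWD1-5 replicate 2, whereas 21 had their highest value in scrambled replicate 3 and 14 in scrambled replicate 1. The same counts were not made over all genes, so these have no background beside them. The siLRWD1-5 library numbered 2 was also low within its group, with 42 of the 48 genes below both other siLRWD1-5 libraries (34.3% of all genes) and a median difference of -0.12 from their mean. With siLRWD1-6, the library numbered 2 was below both others in 23 of the 48 genes (32.8% of all genes). The spread within a group follows: the median SD of the 48 genes was 6.43% of the mean in siLRWD1-5 libraries, 3.31% in siLRWD1-6 libraries and 21.1% in scrambled libraries. Each comparison with scrambled is therefore given with all libraries and without scrambled replicate 2, in a fit in which the other groups keep all their libraries. The siRNA libraries numbered 2 stay in, so that fit is not balanced by experiment. Scrambled replicate 2 was picked out after it was seen to be low in these same genes. Leaving it out moves most of their fold changes down and narrows their spread by construction. The counts and p-values of that fit describe the values and are no independent test. What set scrambled replicate 2 apart was not tested. In RNA from a whole culture, fewer cells in S phase and less RNA per cell cannot be told apart.

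**Figure D2:**
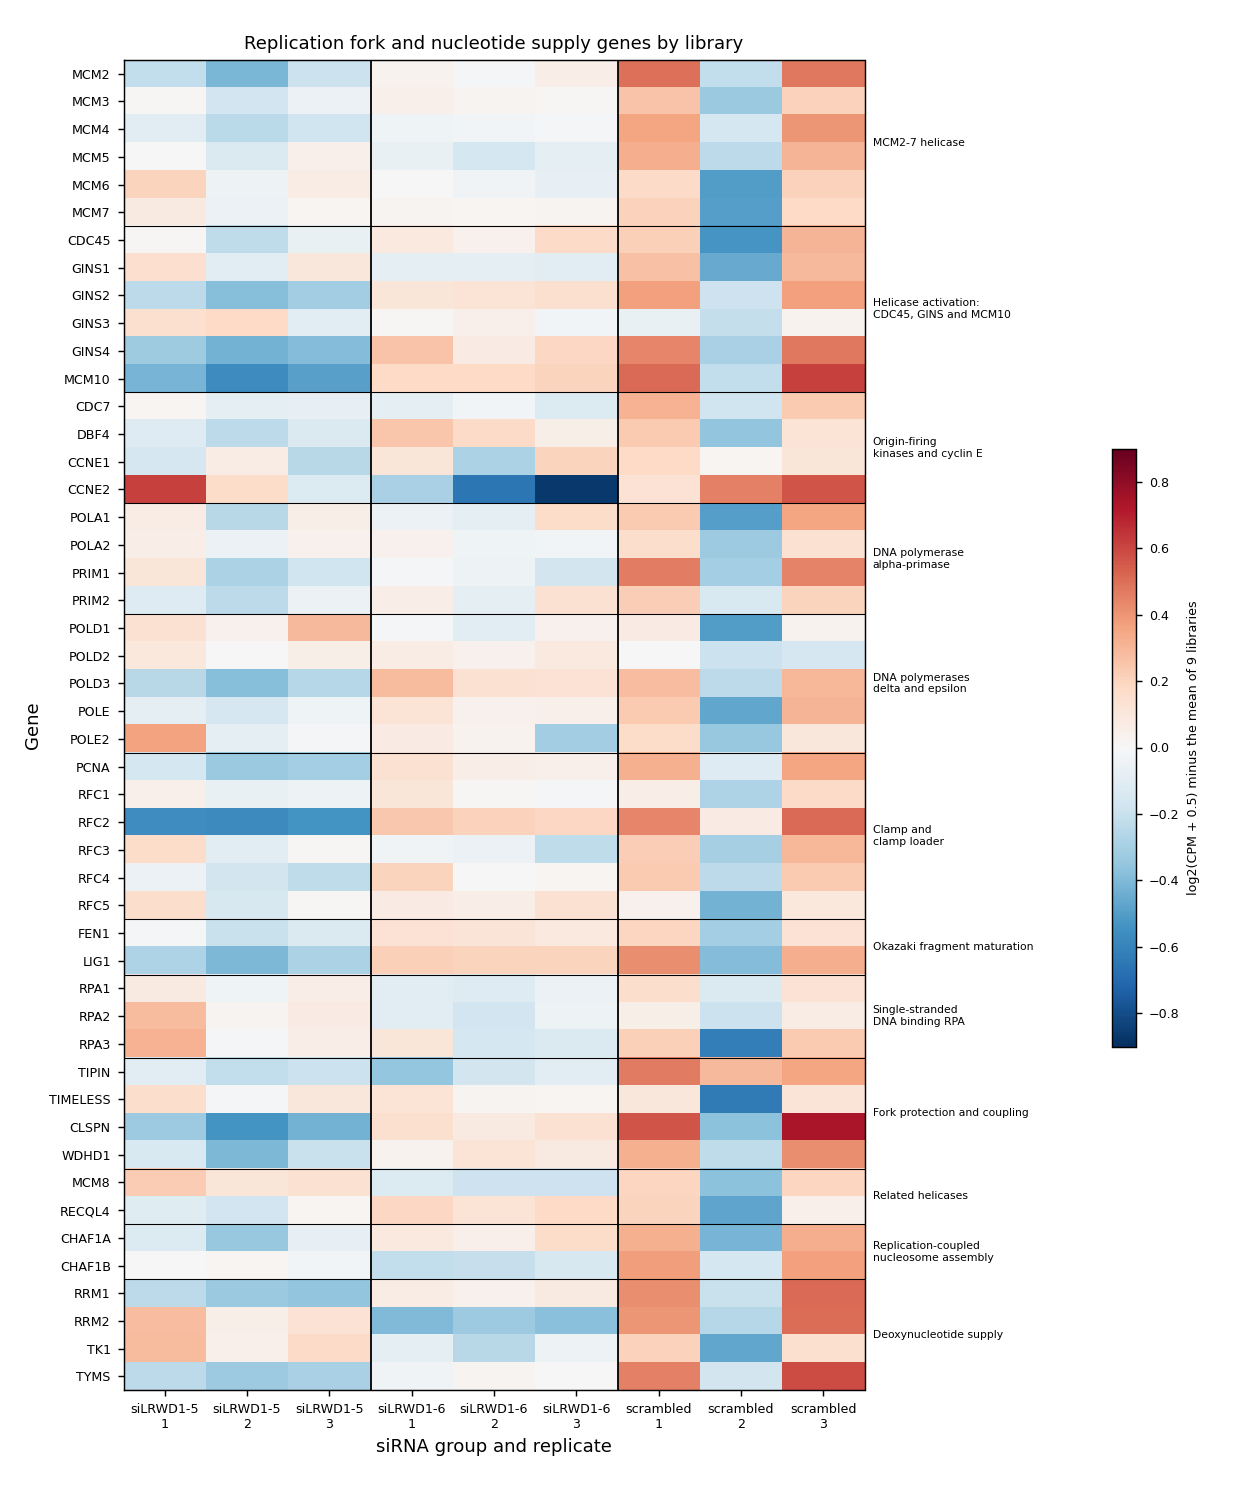
Level of each of the 48 genes (rows, grouped by role) in each of the 9 libraries (columns) as log2(CPM + 0.5) minus the gene's mean over the 9 libraries; red is above and blue below that mean. The scrambled 2 column is below both other scrambled columns in 47 of 48 rows, and the siLRWD1-5 columns are lowest in rows such as RFC2 and MCM10.

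With siLRWD1-5 against scrambled, 13 of the 48 genes were lower at an adjusted p under 0.05 and 0 were higher. The 13 were RFC2, TIPIN, MCM10, PCNA, GINS2, TYMS, RRM1, GINS4, POLD3, CLSPN, MCM2, MCM4 and WDHD1, with log2 fold changes from -0.39 (MCM4) to -0.92 (RFC2). The share of genes called lower was 27.1% of the 48, against 20.3% of all genes tested, and the share called higher was 0 against 18.5%. Over the 48 genes the median log2 fold change was -0.15, with 35 below 0. Over all 13648 genes tested it was -0.01, with 6903 below 0. A single gene, POLD2, was higher at an unadjusted p under 0.05. DESeq2 called POLD2 higher and 14 genes lower, and limma-voom called 0 higher and 13 lower. Without scrambled replicate 2, 32 genes were lower (66.7%, against 25% of all genes) and 0 higher (against 24%), with a median of -0.33 and no gene higher at an unadjusted p under 0.05. The 16 genes that this fit did not call were MCM6, GINS3, CCNE1, CCNE2, POLA2, POLD1, POLD2, POLE2, RFC1, RFC5, RPA1, RPA2, RPA3, TIMELESS, MCM8 and TK1.

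With siLRWD1-6 against scrambled, 4 of the 48 genes were lower: TIPIN, CCNE2, RRM2 and CHAF1B. That is 8.33% of the 48 against 7.78% of all genes tested, a share near the background. No gene of the 48 was called higher (8.81% of all genes were), and POLD2 alone was higher at an unadjusted p under 0.05. DESeq2 called 4 lower and limma-voom 3, and neither called any higher. Without scrambled replicate 2, 29 genes were lower (60.4%, against 13.3% of all genes) and 0 higher (against 15.3%), with a median of -0.23. The 19 not called were CDC45, GINS3, DBF4, CCNE1, POLA2, PRIM2, POLD1, POLD2, POLD3, POLE2, RFC1, RFC4, RFC5, FEN1, LIG1, RPA2, RPA3, TIMELESS and RECQL4. The comparisons of each siRNA with scrambled use the same 3 scrambled libraries, so their fold changes are not independent of each other. The libraries of a group are from separate experiments. The p-values rest on the spread within groups, estimated over all groups together and without the pairing by experiment.

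**Figure D3:**
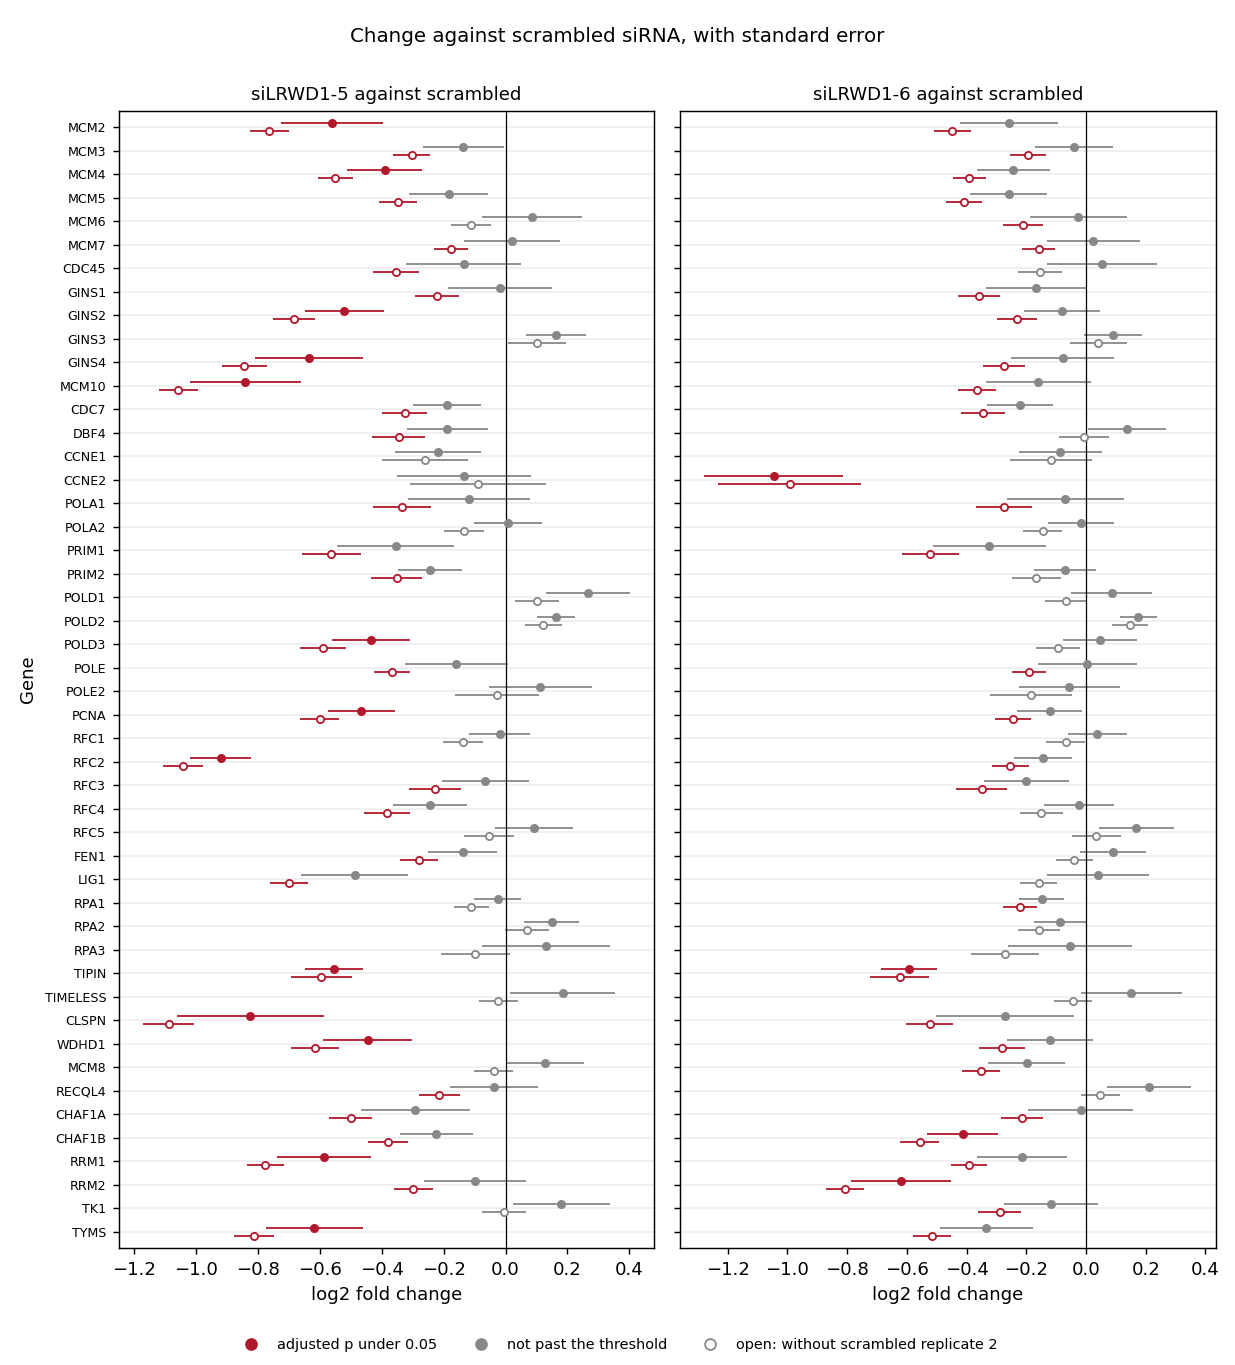
Log2 fold change with its standard error for each gene, siLRWD1-5 against scrambled on the left and siLRWD1-6 against scrambled on the right; filled points use all 9 libraries, open points leave out scrambled replicate 2, and red marks an adjusted p under 0.05. With all libraries 13 genes are called with siLRWD1-5 and 4 with siLRWD1-6, and without that library 32 and 29 are, all of them lower.

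The subunits of the MCM2-7 helicase, the ring that unwinds the DNA, did not all behave alike with siLRWD1-5: MCM2 and MCM4 were lower and the other 4 were not called. MCM2 had 203, 178 and 207 CPM in siLRWD1-5 libraries, 243, 236 and 247 CPM in siLRWD1-6 libraries and 334, 203 and 330.3 CPM in scrambled libraries. MCM4 had 266, 239 and 251 CPM after siLRWD1-5, 276, 279 and 282 CPM after siLRWD1-6 and 363, 254 and 375 CPM after scrambled. In both genes the siLRWD1-5 libraries were below scrambled replicates 1 and 3 but overlapped scrambled replicate 2. The log2 fold change with siLRWD1-5 was -0.56 (SE 0.17, adjusted p = 0.024) for MCM2 and -0.39 (SE 0.12, adjusted p = 0.028) for MCM4. It was -0.76 (SE 0.06, adjusted p = 1.7e-09) for MCM2 and -0.55 (SE 0.06, adjusted p = 6.1e-08) for MCM4 without scrambled replicate 2. Neither was called when scrambled replicate 1, scrambled replicate 3 or any single siLRWD1-5 library was left out, nor MCM4 when siLRWD1-6 replicate 3 was.

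The remaining MCM subunits, which sit in the same ring, had these values. MCM3 had 306, 270.0 and 294 CPM after siLRWD1-5, 315, 309 and 307 CPM after siLRWD1-6 and 364, 241 and 352 CPM after scrambled. MCM5 had 206, 188 and 213 CPM after siLRWD1-5, 197, 185 and 194 CPM after siLRWD1-6 and 259, 175 and 255 CPM after scrambled. In MCM3 and MCM5, as in MCM6 and MCM7, scrambled replicate 2 was the lowest of the 9 libraries. MCM6 had 194, 163 and 177 CPM after siLRWD1-5, 169, 165 and 160.2 CPM after siLRWD1-6 and 190.1, 119 and 195 CPM after scrambled. MCM7 had 517, 472 and 495 CPM after siLRWD1-5, 497, 494 and 498 CPM after siLRWD1-6 and 564, 347 and 553 CPM after scrambled. All libraries with an LRWD1 siRNA lay within the range of the scrambled libraries for MCM3, MCM5, MCM6 and MCM7. With siLRWD1-6 no MCM subunit was called, and the log2 fold changes lay between -0.26 for MCM2 and 0.02 for MCM7. Leaving out scrambled replicate 2 made all 6 subunits lower with siLRWD1-6, from -0.45 for MCM2 (adjusted p = 1.1e-05) to -0.16 for MCM7 (adjusted p = 0.034). Without it 5 were lower with siLRWD1-5, MCM6 not being called at -0.11 (SE 0.07, adjusted p = 0.17). For MCM7 this turned the sign with both siRNAs, since with all libraries its log2 fold change was 0.02 with siLRWD1-5 and 0.02 with siLRWD1-6.

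Among the factors that turn the ring into an active helicase, MCM10, GINS2 and GINS4 were lower with siLRWD1-5. MCM10, which acts when the helicase starts to move, had 65.0, 58.5 and 61.9 CPM in siLRWD1-5 libraries, 98.5, 98.7 and 100.2 CPM in siLRWD1-6 libraries and 124, 74.5 and 133 CPM in scrambled libraries. The siLRWD1-5 libraries were below all others, and the siLRWD1-6 libraries lay between scrambled replicate 2 and scrambled replicates 1 and 3. The fold change was -0.84 (SE 0.18, adjusted p = 0.0055) on the log2 scale with siLRWD1-5, a level 1.79-fold lower, and -0.16 (SE 0.18, adjusted p = 0.6) with siLRWD1-6. It was -1.06 (SE 0.06, adjusted p = 1.4e-11) with siLRWD1-5 and -0.36 (SE 0.06, adjusted p = 0.00014) with siLRWD1-6 once scrambled replicate 2 was left out.

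GINS2, a subunit of the GINS complex, had 49.1, 44.1 and 46.5 CPM after siLRWD1-5, 62.5, 63.2 and 64.1 CPM after siLRWD1-6 and 74.8, 50.7 and 74.8 CPM after scrambled. GINS4, another of its subunits, had 43.4, 40.3 and 41.2 CPM after siLRWD1-5, 65.1, 57.1 and 61.8 CPM after siLRWD1-6 and 73.9, 44.2 and 75.8 CPM after scrambled. For both genes the siLRWD1-5 libraries were below all scrambled libraries, though GINS4 was close to scrambled replicate 2. With siLRWD1-5 the log2 fold change was -0.52 (SE 0.13, adjusted p = 0.0084) for GINS2 and -0.64 (SE 0.17, adjusted p = 0.017) for GINS4, and with siLRWD1-6 it was -0.08 and -0.08, neither of them called. GINS4 was no longer called when either of scrambled replicates 1 and 3, or either of siLRWD1-5 replicates 2 and 3, was left out. Both genes were lower with both siRNAs without scrambled replicate 2, GINS2 at -0.68 with siLRWD1-5 and -0.23 with siLRWD1-6, and GINS4 at -0.84 with siLRWD1-5 and -0.28 with siLRWD1-6. CDC45, GINS1 and GINS3, the other components, were not called with either siRNA, with log2 fold changes between -0.17 (GINS1, siLRWD1-6) and 0.16 (GINS3, siLRWD1-5). GINS3 was the only one of these 6 genes that stayed uncalled with both siRNAs without scrambled replicate 2, at 0.10 with siLRWD1-5 and 0.04 with siLRWD1-6.

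CCNE2, a cyclin E that activates CDK2 at the G1/S transition, was lower with siLRWD1-6. It had 10.4, 7.48 and 6.01 CPM in siLRWD1-5 libraries, 5.30, 4.02 and 3.39 CPM in siLRWD1-6 libraries and 7.27, 9.24 and 10.0 CPM in scrambled libraries. All siLRWD1-6 libraries were below all others, and the siLRWD1-5 libraries spread across the scrambled range. On the log2 scale it differed from scrambled by -1.05 (SE 0.23, adjusted p = 0.011) with siLRWD1-6 and by -0.14 (SE 0.22, adjusted p = 0.66) with siLRWD1-5, and -0.99 (SE 0.24, adjusted p = 0.006) with siLRWD1-6 without scrambled replicate 2. The siLRWD1-6 call was lost without siLRWD1-6 replicate 3. In GENCODE v29, 37.1% of the exon bases of CCNE2 are shared with genes on the opposite strand, INTS8 among them, and the libraries do not keep strand. INTS8 was not called with siLRWD1-6 against scrambled, at -0.20 on the log2 scale (adjusted p = 0.2). The paralog CCNE1 had 12.9 ± 1.53 CPM after siLRWD1-5, 14.2 ± 2.50 CPM after siLRWD1-6 and 15.0 ± 0.848 CPM after scrambled (SD, n = 3 each) and was not called with or without scrambled replicate 2. CDC7 and DBF4, the kinase that phosphorylates the MCM ring and its activating subunit, were not called with all libraries. CDC7 was lower with both siRNAs without scrambled replicate 2, at -0.33 with siLRWD1-5 and -0.35 with siLRWD1-6, and DBF4 with siLRWD1-5 at -0.35.

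None of the 4 subunits of DNA polymerase alpha-primase, which starts each new strand, was called with all libraries. PRIM2, the large subunit of primase, had the smallest p of them with siLRWD1-5, at 38.5, 35.4 and 40.3 CPM after siLRWD1-5, 43.5, 39.3 and 46.1 CPM after siLRWD1-6 and 48.9, 38.0 and 48.1 CPM after scrambled. Its siLRWD1-5 libraries overlapped scrambled replicate 2, and the log2 fold change was -0.24 (SE 0.10, adjusted p = 0.087). With the experiment number as a block, PRIM2 was called lower at -0.24 (SE 0.07, adjusted p = 0.022). PRIM1, the catalytic subunit of primase, had 32.9 ± 4.81 CPM after siLRWD1-5, 33.7 ± 1.83 CPM after siLRWD1-6 and 42.0 ± 11.6 CPM after scrambled (SD, n = 3 each). With scrambled replicate 2 left out, PRIM1 was lower with both siRNAs, at -0.56 with siLRWD1-5 and -0.52 with siLRWD1-6, as was POLA1, the catalytic subunit of polymerase alpha, at -0.33 with siLRWD1-5 and -0.28 with siLRWD1-6.

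Of the polymerases that extend the strands, POLD3, an accessory subunit of polymerase delta, was lower with siLRWD1-5. It had 45.2, 41.1 and 45.0 CPM after siLRWD1-5, 65.6, 59.0 and 58.8 CPM after siLRWD1-6 and 65.4, 45.6 and 66.1 CPM after scrambled. The siLRWD1-5 libraries were just below scrambled replicate 2 and well below scrambled replicates 1 and 3, while the siLRWD1-6 libraries lay within the scrambled range. The change on the log2 scale was -0.43 (SE 0.13, adjusted p = 0.019) with siLRWD1-5 and 0.05 (SE 0.12, adjusted p = 0.84) with siLRWD1-6. It was -0.59 (SE 0.07, adjusted p = 1.1e-06) with siLRWD1-5 and -0.09 (SE 0.07, adjusted p = 0.37) with siLRWD1-6 without scrambled replicate 2. Leaving out scrambled replicate 1, scrambled replicate 3 or siLRWD1-5 replicate 2 ended the POLD3 call.

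POLD2, the small subunit of polymerase delta, was the gene nearest to a higher call. It had 205, 193 and 199 CPM after siLRWD1-5, 201, 197 and 204 CPM after siLRWD1-6 and 192, 168 and 173 CPM after scrambled. Every library with an LRWD1 siRNA was above every scrambled library, by little. On the log2 scale the fold change was 0.16 (SE 0.06, adjusted p = 0.058) with siLRWD1-5 and 0.18 (SE 0.06, adjusted p = 0.078) with siLRWD1-6. With the experiment number as a block it was called with siLRWD1-5 at 0.16 (SE 0.06, adjusted p = 0.035), as was POLD1, the catalytic subunit, at 0.28 (SE 0.09, adjusted p = 0.031). With all libraries and no block POLD1 had 0.27 (SE 0.14, adjusted p = 0.15) with siLRWD1-5. POLE and POLE2, of polymerase epsilon, were not called. POLE was lower with both siRNAs without scrambled replicate 2, at -0.37 with siLRWD1-5 and -0.19 with siLRWD1-6.

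RFC2, a subunit of the clamp loader, had the lowest log2 fold change and the smallest p of the 48 genes with siLRWD1-5 when all libraries were used. Its level was 48.1, 47.6 and 48.9 CPM in siLRWD1-5 libraries, 84.2, 82.3 and 81.0 CPM in siLRWD1-6 libraries and 96.8, 75.0 and 102 CPM in scrambled libraries. The siLRWD1-5 libraries were below all others by a wide margin, and the siLRWD1-6 libraries lay between scrambled replicate 2 and the other scrambled libraries. The log2 fold change was -0.92 (SE 0.10, adjusted p = 3e-05) with siLRWD1-5, 1.89-fold lower, and -0.14 (SE 0.10, adjusted p = 0.35) with siLRWD1-6. Leaving out scrambled replicate 2 gave -1.04 (SE 0.06, adjusted p = 1.6e-11) with siLRWD1-5 and -0.25 (SE 0.06, adjusted p = 0.0038) with siLRWD1-6. The other loader subunits did not follow it: RFC1, RFC3, RFC4 and RFC5 were not called with siLRWD1-5, with log2 fold changes from -0.24 (RFC4) to 0.09 (RFC5). The loader joins these subunits in a single complex. RFC4 was lower at -0.38 (SE 0.07, adjusted p = 0.00018) and RFC3 at -0.23 (SE 0.08, adjusted p = 0.03) with siLRWD1-5 without scrambled replicate 2, while RFC1 (-0.14) and RFC5 (-0.05) were not called.

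PCNA, the ring-shaped clamp that holds polymerases on the template, had 154, 136 and 139 CPM after siLRWD1-5, 189, 179 and 177 CPM after siLRWD1-6 and 214, 159 and 219 CPM after scrambled. The siLRWD1-5 libraries were below every scrambled library. The change on the log2 scale was -0.47 (SE 0.11, adjusted p = 0.0062) with siLRWD1-5 and -0.12 (SE 0.11, adjusted p = 0.5) with siLRWD1-6, and without scrambled replicate 2 it was -0.60 (SE 0.06, adjusted p = 5.6e-08) with siLRWD1-5 and -0.24 (SE 0.06, adjusted p = 0.0047) with siLRWD1-6. The calls of RFC2, PCNA, MCM10, GINS2, TIPIN, TYMS and RRM1 with siLRWD1-5 were kept in each of the 9 fits that left out a single library.

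**Figure D4:**
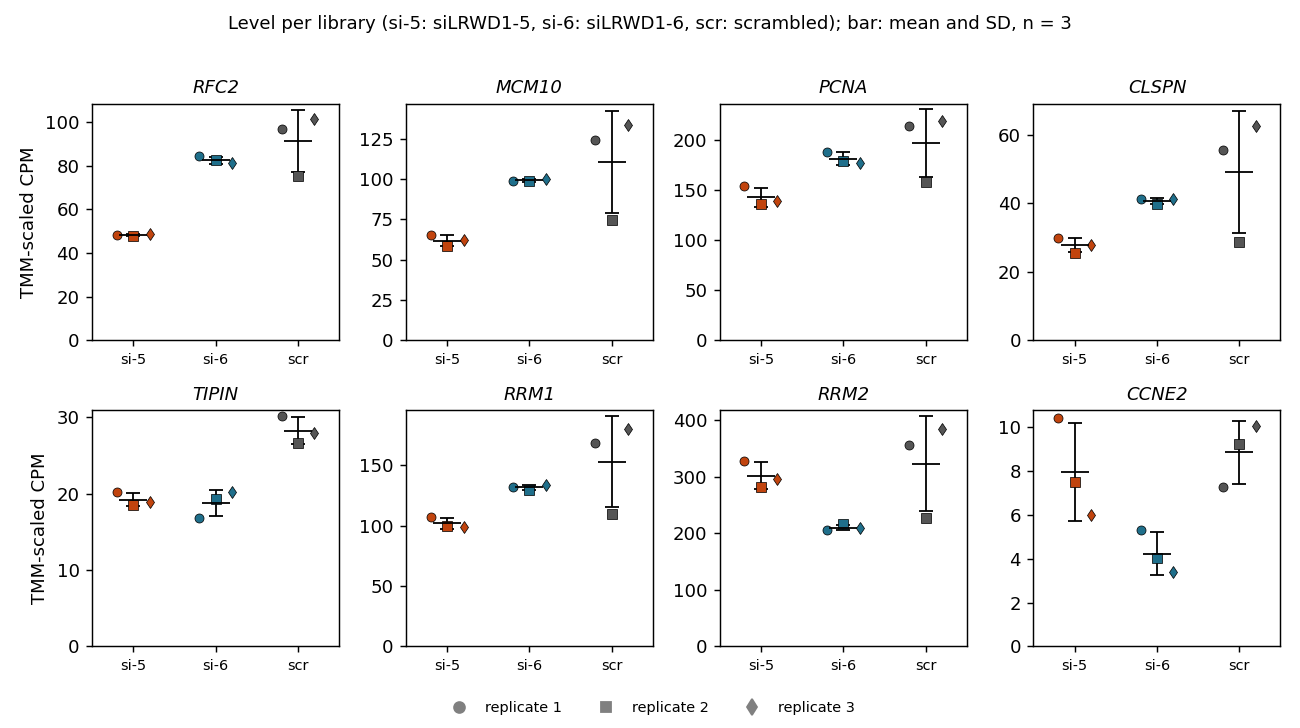
CPM of 8 genes in each library, with siLRWD1-5 (si-5), siLRWD1-6 (si-6) and scrambled (scr) from left to right; the marker shape gives the replicate number and the bars are the mean and SD of 3 libraries. RFC2, MCM10 and PCNA are lowest with siLRWD1-5, CCNE2 and RRM2 with siLRWD1-6, and TIPIN is low with both, while scrambled replicate 2 (square) is the lowest scrambled library in every panel but CCNE2.

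FEN1 and LIG1 trim and seal Okazaki fragments. LIG1, the ligase, had 80.0, 73.5 and 79.7 CPM after siLRWD1-5, 113, 112 and 112 CPM after siLRWD1-6 and 130.2, 74.3 and 122 CPM after scrambled. Its siLRWD1-5 libraries were near scrambled replicate 2, and far below scrambled replicates 1 and 3. The log2 fold change with siLRWD1-5 was -0.49 (SE 0.17, adjusted p = 0.051), just short of the threshold. With the experiment number as a block it was called at -0.46 (SE 0.15, adjusted p = 0.036), and without scrambled replicate 2 at -0.70 (SE 0.06, adjusted p = 6.2e-09). FEN1, the flap nuclease, had 118 ± 7.67 CPM after siLRWD1-5, 138 ± 2.21 CPM after siLRWD1-6 and 129.7 ± 23.3 CPM after scrambled (SD, n = 3 each) and was not called with either, though without scrambled replicate 2 it was lower with siLRWD1-5 at -0.28 (SE 0.06, adjusted p = 0.00086). With all libraries the test did not call RPA1, RPA2 and RPA3, the subunits that coat single-stranded DNA, whose log2 fold changes ran from -0.15 (RPA1, siLRWD1-6) to 0.15 (RPA2, siLRWD1-5). RPA1 was lower with siLRWD1-6 at -0.22 (SE 0.06, adjusted p = 0.0054) without scrambled replicate 2.

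TIPIN, which with TIMELESS and CLSPN steadies a stalled fork, was the gene of the 48 that was lower with both siRNAs when all libraries were used. It had 20.2, 18.5 and 18.9 CPM in siLRWD1-5 libraries, 16.9, 19.3 and 20.1 CPM in siLRWD1-6 libraries and 30.2, 26.7 and 27.9 CPM in scrambled libraries. Every library with an LRWD1 siRNA was below every scrambled library, and scrambled replicate 2 was close to the other scrambled libraries in this gene. The change on the log2 scale was -0.56 (SE 0.09, adjusted p = 0.00078) with siLRWD1-5 and -0.59 (SE 0.09, adjusted p = 0.0016) with siLRWD1-6. Leaving out scrambled replicate 2 moved it little, to -0.60 (SE 0.10, adjusted p = 3.4e-05) with siLRWD1-5 and -0.62 (SE 0.10, adjusted p = 5.8e-05) with siLRWD1-6, and both calls were kept in each of the 9 fits that left out a single library. In GENCODE v29, 21% of the exon bases of TIPIN are shared with a ribosomal protein pseudogene, RPL9P25, on the same strand. TIMELESS, the partner of TIPIN, was not called, at 0.18 (SE 0.17, adjusted p = 0.42) with siLRWD1-5 and 0.15 (SE 0.17, adjusted p = 0.6) with siLRWD1-6.

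CLSPN, the checkpoint adaptor claspin, had 29.8, 25.6 and 27.8 CPM after siLRWD1-5, 41.4, 39.7 and 41.2 CPM after siLRWD1-6 and 55.7, 28.9 and 62.7 CPM after scrambled. Scrambled replicate 2 was within the siLRWD1-5 range, and its distance from the other scrambled libraries was the largest of the 48 genes. The log2 fold change was -0.82 (SE 0.24, adjusted p = 0.023) with siLRWD1-5 and -0.27 (SE 0.23, adjusted p = 0.48) with siLRWD1-6, and without scrambled replicate 2 it was -1.09 (SE 0.08, adjusted p = 4.8e-10) with siLRWD1-5 and -0.52 (SE 0.08, adjusted p = 3.4e-05) with siLRWD1-6. WDHD1, which links polymerase alpha to the helicase, was lower with siLRWD1-5 at -0.45 (SE 0.14, adjusted p = 0.034), with 48.4 ± 4.67 CPM in siLRWD1-5 libraries, 60.7 ± 2.01 CPM in siLRWD1-6 libraries and 65.9 ± 14.8 CPM in scrambled libraries (SD, n = 3 each). CLSPN and WDHD1 were no longer called when either of scrambled replicates 1 and 3, or either of siLRWD1-5 replicates 2 and 3, was left out, and WDHD1 also not without siLRWD1-5 replicate 1 or siLRWD1-6 replicate 3.

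Neither of the related helicases was called with all libraries. MCM8, a helicase of recombination repair, had 94.1, 86.7 and 88.5 CPM after siLRWD1-5, 73.7, 70.4 and 70.7 CPM after siLRWD1-6 and 92.0, 62.0 and 92.1 CPM after scrambled. It was lower with siLRWD1-6 at -0.35 (SE 0.06, adjusted p = 0.00024) without scrambled replicate 2, and not called with siLRWD1-5 at -0.04 (SE 0.06, adjusted p = 0.64). RECQL4, which helps replication start, had 138 ± 9.22 CPM after siLRWD1-5, 163 ± 4.17 CPM after siLRWD1-6 and 141 ± 32.5 CPM after scrambled (SD, n = 3 each). It was lower with siLRWD1-5 at -0.21 (SE 0.07, adjusted p = 0.0099) without scrambled replicate 2.

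CHAF1A and CHAF1B are subunits of the chaperone that places histones behind the fork. CHAF1B had 62.3, 63.0 and 61.1 CPM after siLRWD1-5, 53.4, 53.8 and 56.2 CPM after siLRWD1-6 and 80.9, 55.8 and 80.6 CPM after scrambled. The siLRWD1-6 libraries were below scrambled replicates 1 and 3 and overlapped scrambled replicate 2. The log2 fold change was -0.22 (SE 0.12, adjusted p = 0.16) with siLRWD1-5 and -0.41 (SE 0.12, adjusted p = 0.037) with siLRWD1-6. The siLRWD1-6 call was kept in only 1 of the 9 fits that left out a single library, the fit without scrambled replicate 2, where it was -0.56 (SE 0.06, adjusted p = 1e-06). CHAF1A was not called with all libraries, at -0.29 with siLRWD1-5 and -0.02 with siLRWD1-6. In the fit without that library CHAF1A was lower with both siRNAs, at -0.50 (SE 0.07, adjusted p = 4.8e-06) with siLRWD1-5 and -0.21 (SE 0.07, adjusted p = 0.026) with siLRWD1-6, and CHAF1B was also lower with siLRWD1-5, at -0.38 (SE 0.06, adjusted p = 4.4e-05).

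The subunits of ribonucleotide reductase, the enzyme that makes deoxynucleotides, were each lower with a different siRNA when all libraries were used. RRM1, the large subunit, had 107, 99.9 and 98.7 CPM in siLRWD1-5 libraries, 132, 129.8 and 134 CPM in siLRWD1-6 libraries and 169, 110.0 and 180.5 CPM in scrambled libraries. RRM2, the small subunit whose level follows S phase, had 329, 281 and 297 CPM in siLRWD1-5 libraries, 206, 216 and 209 CPM in siLRWD1-6 libraries and 357, 227 and 386 CPM in scrambled libraries. The siLRWD1-5 libraries were the lowest for RRM1, and the siLRWD1-6 libraries were the lowest for RRM2, in each case below every library of the other groups. RRM1 had a log2 fold change of -0.59 (SE 0.15, adjusted p = 0.013) with siLRWD1-5 and -0.21 (SE 0.15, adjusted p = 0.38) with siLRWD1-6. RRM2 had -0.10 (SE 0.17, adjusted p = 0.68) with siLRWD1-5 and -0.62 (SE 0.17, adjusted p = 0.034) with siLRWD1-6. The RRM2 call with siLRWD1-6 was lost in 7 of the 9 fits that left out a single library, all but those without scrambled replicate 2 or siLRWD1-5 replicate 1. With scrambled replicate 2 left out, both genes were lower with both siRNAs. RRM1 was then at -0.78 with siLRWD1-5 and -0.39 with siLRWD1-6, and RRM2 at -0.30 with siLRWD1-5 and -0.81 with siLRWD1-6. RRM2 has 3 pseudogenes named after it in GENCODE v29, so some of its reads could have been lost or assigned to a copy.

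TYMS, thymidylate synthase, makes the thymidine nucleotide anew, and TK1, thymidine kinase, salvages it. TYMS had 61.2, 57.5 and 59.0 CPM after siLRWD1-5, 70.9, 73.6 and 72.0 CPM after siLRWD1-6 and 99.3, 64.4 and 109 CPM after scrambled. TK1 had 166, 141 and 154 CPM after siLRWD1-5, 129, 115 and 132 CPM after siLRWD1-6 and 158, 98.5 and 151 CPM after scrambled. For TYMS the siLRWD1-5 libraries were below every scrambled library, whereas for TK1 both siRNA groups overlapped the scrambled range. TYMS was lower with siLRWD1-5 at -0.62 (SE 0.16, adjusted p = 0.012) and not called with siLRWD1-6 at -0.33 (SE 0.16, adjusted p = 0.18). TK1 was not called, at 0.18 (SE 0.16, adjusted p = 0.4) with siLRWD1-5 and -0.12 (SE 0.16, adjusted p = 0.67) with siLRWD1-6. TYMS was lower with both siRNAs without scrambled replicate 2, at -0.81 with siLRWD1-5 and -0.52 with siLRWD1-6, and TK1 was lower with siLRWD1-6 at -0.29 (SE 0.07, adjusted p = 0.0045) but not with siLRWD1-5 at -0.01 (SE 0.07, adjusted p = 0.96). In GENCODE v29, 46.6% of the exon bases of TYMS are shared with genes on the opposite strand, ENOSF1 among them, which was not called with siLRWD1-5 (0.15 on the log2 scale, adjusted p = 0.44).

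Set against each other, the siRNAs left 7 of the 48 genes higher with siLRWD1-6 than with siLRWD1-5 and 3 lower. The higher genes were 14.6% of the 48, against 22.4% of all genes tested, and the lower ones 6.25%, against 20.9%. Both shares were below the background, so the count is no result about these genes as a group. The spread in this fit is shared with the scrambled libraries. A fit of the 6 siRNA libraries alone called 20 genes higher and 8 lower. Over all genes that fit made 7458 calls, against 5919 with all libraries, so calls rose outside the 48 genes too. Its shares by direction over all genes were not computed, so its counts are no result about the 48 genes. A fit of all libraries but scrambled replicate 2 called 21 higher (43.8%, against 28.5% of all genes) and 7 lower (14.6%, against 25.9%). The contrast between the siRNAs uses no scrambled level, so leaving out that library acts mainly through the shared spread. The library was picked for being low in these genes, so the spread narrows in them by construction. The counts of that fit are therefore no independent test. In 21 of the 48 genes every siLRWD1-6 library was above every siLRWD1-5 library, which is 43.8% against 30.7% of all genes tested, and in 7 every one was below, which is 14.6% against 30.3%.

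RFC2 differed most clearly, at 0.78 (SE 0.10, adjusted p = 8.2e-05) for siLRWD1-6 against siLRWD1-5, a level 1.71-fold higher. The others that were higher with siLRWD1-6 were MCM10 at 0.68 (SE 0.18, adjusted p = 0.014), GINS4 at 0.56 (SE 0.17, adjusted p = 0.028), LIG1 at 0.53 (SE 0.17, adjusted p = 0.034), POLD3 at 0.48 (SE 0.13, adjusted p = 0.0097), GINS2 at 0.44 (SE 0.13, adjusted p = 0.017) and PCNA at 0.34 (SE 0.11, adjusted p = 0.025). In each of these 7 genes every siLRWD1-6 library was above every siLRWD1-5 library. The calls of RFC2, POLD3 and MCM10 were kept in all 9 fits that left out a single library. GINS2, GINS4, LIG1 and PCNA were no longer called when siLRWD1-5 replicate 2, siLRWD1-5 replicate 3 or siLRWD1-6 replicate 3 was left out. Leaving out siLRWD1-5 replicate 1 also ended the GINS4 and LIG1 calls, siLRWD1-6 replicate 1 the GINS4, LIG1 and PCNA calls, and siLRWD1-6 replicate 2 the LIG1 and PCNA calls.

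CCNE2, RRM2 and RPA2 were lower with siLRWD1-6 than with siLRWD1-5. CCNE2 had a log2 fold change of -0.91 (SE 0.23, adjusted p = 0.0082) and RRM2 of -0.52 (SE 0.17, adjusted p = 0.03). RPA2, the middle subunit of the RPA trimer, had 132, 126 and 137 CPM in siLRWD1-6 libraries and 173, 144 and 148 CPM in siLRWD1-5 libraries, with scrambled at 147, 124 and 148 CPM. Every siLRWD1-6 library was below every siLRWD1-5 library, by little, and the log2 fold change was -0.24 (SE 0.09, adjusted p = 0.049). CCNE2 was called in all 9 fits that left out a single library, RRM2 in 4 and RPA2 in 2. INTS8, which shares exon bases with CCNE2, was also lower with siLRWD1-6 than with siLRWD1-5, at -0.30 (adjusted p = 0.031). With the experiment number as a block, DBF4 (0.33 (SE 0.11, adjusted p = 0.029)) and WDHD1 (0.33 (SE 0.12, adjusted p = 0.046)) were also higher with siLRWD1-6, and MCM8 (-0.32 (SE 0.10, adjusted p = 0.027)) and TK1 (-0.29 (SE 0.10, adjusted p = 0.029)) also lower. TIPIN, which was low with both siRNAs, had -0.04 ± 0.10 (SE) for siLRWD1-6 against siLRWD1-5, with an adjusted p of 0.78.

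**Figure D5:**
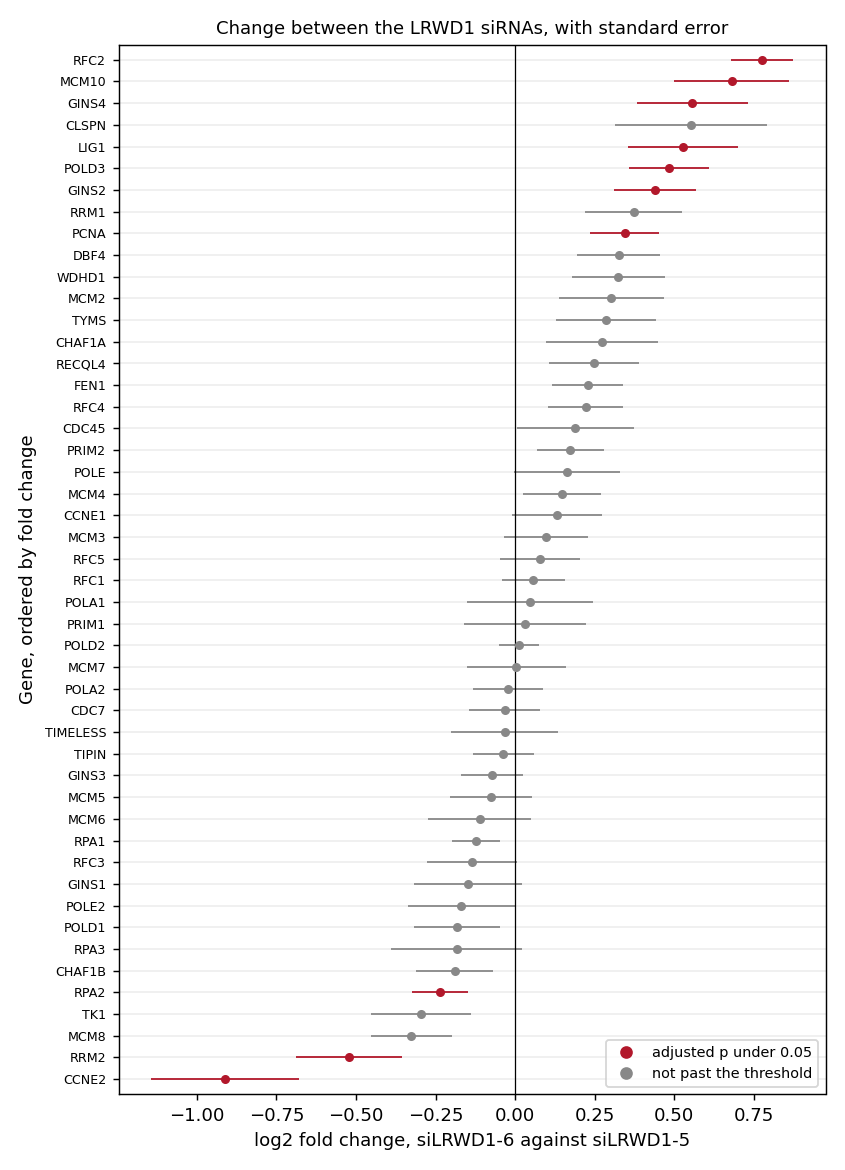
Log2 fold change of siLRWD1-6 against siLRWD1-5 with its standard error for each of the 48 genes, ordered from the highest to the lowest; red marks an adjusted p under 0.05. The 7 genes called higher run from RFC2 to PCNA, and CCNE2, RRM2 and RPA2 are called lower.

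Compared per kilobase of the longest coding transcript in GENCODE v29, levels differed widely between subunits of the same complex in scrambled libraries. MCM7 averaged 158 CPM per kilobase, MCM3 99.4, MCM2 79.8, MCM4 79.0, MCM5 65.0 and MCM6 44.9, although the ring holds each subunit once. PCNA averaged 145 CPM per kilobase. In the clamp loader RFC4 averaged 54.2 and RFC2 53.8 CPM per kilobase, against 22.6 for RFC1, 19.7 for RFC3 and 19.3 for RFC5. With siLRWD1-5 RFC2 averaged 28.4 CPM per kilobase and RFC4 45.8. RRM2 averaged 88.0 and RRM1 49.8 CPM per kilobase with scrambled, and with siLRWD1-6 they averaged 57.3 and 42.9. CCNE2 was the lowest of the 48, at 2.66 CPM per kilobase with scrambled. Overlap with other genes bears on these levels: 8 of the 48 genes share at least 20% of their exon bases with another gene, 23 share none, and 9 have a pseudogene named after them. The same limit holds for the calls of MCM2 and GINS4, which each share 23.6% with genes on the opposite strand. It also holds for PCNA and RPA2, which like RRM2 have 3 pseudogenes each.

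Other genes of the same pathways were read from 5 lists. Of 10 genes of origin licensing and LRWD1 partners, 6 were lower with siLRWD1-5 (60%, against 20.3% of all genes tested) and 0 higher (against 18.5%), with a median log2 fold change of -0.53, against -0.01 over all genes. MCMBP, which binds MCM proteins, had 97.8 ± 3.74 CPM in siLRWD1-5 libraries and 171 ± 7.31 CPM in scrambled libraries (SD, n = 3 each), a log2 fold change of -0.80 (SE 0.06, adjusted p = 2.1e-06). CDC6, which loads the MCM ring, had 44.0 ± 3.75 CPM in siLRWD1-5 libraries and 87.2 ± 20.5 CPM in scrambled libraries, a change of -0.99 (SE 0.16, adjusted p = 0.00086). The origin recognition subunits ORC2 at -0.54 (SE 0.07, adjusted p = 8.1e-05) and ORC3 at -0.51 (SE 0.09, adjusted p = 0.001) were also lower. With siLRWD1-6 none of the 10 was called, with a median of -0.09. Between the siRNAs 5 of the 10 were higher with siLRWD1-6 (50%, against 22.4% of all genes tested) and 0 lower (against 20.9%). Among the 5 were MCMBP at 0.76 (SE 0.06, adjusted p = 2.1e-06), CDC6 at 0.89 (SE 0.16, adjusted p = 0.0013) and ORC2 at 0.61 (SE 0.07, adjusted p = 2.4e-05). Without scrambled replicate 2, 9 of the 10 were lower with siLRWD1-5 (90%, against 25% of all genes) and 4 with siLRWD1-6 (40%, against 13.3%).

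Of 29 tested genes of other fork and post-replication steps, 9 were lower and 2 higher with siLRWD1-5 (median -0.22), and 3 were lower and 1 higher with siLRWD1-6 (median -0.09). The lower genes were 31% of the list with siLRWD1-5, against 20.3% of all genes tested, and 10.3% with siLRWD1-6, against 7.78%. The higher ones were 6.9% with siLRWD1-5, against 18.5%, and 3.45% with siLRWD1-6, against 8.81%. DONSON, a replisome factor, had 22.4 ± 1.88 CPM in siLRWD1-5 libraries and 57.8 ± 9.83 CPM in scrambled libraries, a change of -1.37 (SE 0.13, adjusted p = 1.9e-05). TOPBP1, which helps load CDC45 and signals to ATR, changed by -1.18 (SE 0.12, adjusted p = 3.4e-05), the FACT histone chaperone subunit SUPT16H by -0.76 (SE 0.07, adjusted p = 1.2e-05) and the histone chaperone ASF1A by -0.81 (SE 0.11, adjusted p = 0.00013). With siLRWD1-6, POLE3, a small subunit of polymerase epsilon, was higher at 0.33 (SE 0.06, adjusted p = 0.0024), and DSCC1 at -0.63 (SE 0.17, adjusted p = 0.027), POLE4 at -0.37 (SE 0.11, adjusted p = 0.033) and POLD4 at -0.48 (SE 0.15, adjusted p = 0.045) were lower, the last of them not without scrambled replicate 2. Between the siRNAs 7 were higher with siLRWD1-6 (24.1%, against 22.4% of all genes tested) and 2 lower (6.9%, against 20.9%), with a median of 0.15. Without scrambled replicate 2, 18 were lower with siLRWD1-5 (62.1%, against 25% of all genes) and 17 with siLRWD1-6 (58.6%, against 13.3%).

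Among 30 tested genes of other nucleotide synthesis and salvage steps, 14 were lower (46.7%, against 20.3% of all genes tested) and 1 higher (3.33%, against 18.5%) with siLRWD1-5, with a median of -0.19. DGUOK, deoxyguanosine kinase of mitochondria, had 20.8 ± 1.65 CPM in siLRWD1-5 libraries and 63.3 ± 5.75 CPM in scrambled libraries, a change of -1.60 (SE 0.09, adjusted p = 2.1e-07). DTYMK, thymidylate kinase, which acts after TYMS and TK1, had 23.7 ± 1.40 CPM in siLRWD1-5 libraries and 67.0 ± 8.79 CPM in scrambled libraries, a change of -1.50 (SE 0.10, adjusted p = 7.7e-07). In purine synthesis ATIC changed by -1.18 (SE 0.06, adjusted p = 2.1e-07) and IMPDH2 by -0.93 (SE 0.07, adjusted p = 1.7e-06). These 4 genes changed little when scrambled replicate 2 was left out, to between -1.66 for DGUOK and -0.93 for IMPDH2. With siLRWD1-6, 3 of the 30 were lower (10%, against 7.78% of all genes): the deoxycytidine kinase DCK at -0.49 (SE 0.09, adjusted p = 0.004), HPRT1, a purine salvage enzyme, at -0.42 (SE 0.09, adjusted p = 0.011) and ATIC at -0.29 (SE 0.06, adjusted p = 0.0086). The fit without scrambled replicate 2 called 15 lower (50%, against 25% of all genes) and 3 higher (10%, against 24%) with siLRWD1-5. With siLRWD1-6 it called 8 lower (26.7%, against 13.3% of all genes) and 0 higher. Between the siRNAs 11 were higher with siLRWD1-6 (36.7%, against 22.4% of all genes tested) and 3 lower (10%, against 20.9%). The higher ones were led by DGUOK at 1.65 (SE 0.09, adjusted p = 1.4e-07) and DTYMK at 1.51 (SE 0.10, adjusted p = 5.7e-07).

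In the list of E2F, RB and G1/S regulators 7 of 27 were lower and 0 higher with siLRWD1-5 (median -0.08), and 2 were lower and 4 higher with siLRWD1-6 (median -0.08). The lower genes were 25.9% of the list with siLRWD1-5, against 20.3% of all genes tested, and 7.41% with siLRWD1-6, against 7.78%, and the higher ones 14.8% with siLRWD1-6, against 8.81%. The fit without scrambled replicate 2 called 13 lower (48.1%, against 25%) and 0 higher with siLRWD1-5, and 10 lower (37%, against 13.3%) and 6 higher (22.2%, against 15.3%) with siLRWD1-6, so with siLRWD1-6 lower calls then outnumbered higher ones. E2F5, a repressor of the family, changed by -0.58 (SE 0.09, adjusted p = 0.00046), the atypical repressor E2F7 by -0.83 (SE 0.13, adjusted p = 0.00053), cyclin D1 (CCND1) by -0.53 (SE 0.11, adjusted p = 0.003) and SKP2, which marks the inhibitor p27 for degradation, by -0.99 (SE 0.21, adjusted p = 0.0055) with siLRWD1-5. With siLRWD1-6, TFDP2, a partner of E2F proteins, was lower at -0.51 (SE 0.07, adjusted p = 0.00053) and CCND3 at -0.54 (SE 0.08, adjusted p = 0.0011), while LIN54 at 0.56 (SE 0.13, adjusted p = 0.012) and E2F4 at 0.35 (SE 0.09, adjusted p = 0.019) were higher. Between the siRNAs 7 of the 27 were higher with siLRWD1-6 (25.9%, against 22.4% of all genes tested) and 3 lower (11.1%, against 20.9%). Among them was CDK6, higher at 1.24 (SE 0.19, adjusted p = 0.00082).

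Of 30 mitosis genes 4 were lower and 0 higher with siLRWD1-5 (median -0.02), and 0 were called with siLRWD1-6 (median 0.02). The lower share with siLRWD1-5 was 13.3%, below the 20.3% of all genes tested. The 4 were CDC20, the activator of the anaphase-promoting complex, at -2.04 (SE 0.17, adjusted p = 1.7e-05), TOP2A, which the list of other fork genes also holds, at -0.89 (SE 0.22, adjusted p = 0.013), AURKA at -0.49 (SE 0.15, adjusted p = 0.03) and KIF11 at -0.59 (SE 0.19, adjusted p = 0.035). All 4 were higher with siLRWD1-6 than with siLRWD1-5, CDC20 at 2.04 (SE 0.17, adjusted p = 1.3e-05). That is 13.3% of the list, against 22.4% of all genes tested. Without scrambled replicate 2, 16 were lower (53.3%, against 25% of all genes) and 1 higher with siLRWD1-5, and 17 were lower (56.7%, against 13.3%) and 0 higher with siLRWD1-6, so the mitosis list moved with this library as the replication genes did. The part of that library in either result was not tested beyond the fits without it.

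Measured from the mean of scrambled replicates 1 and 3, each library with an LRWD1 siRNA was lower in most of the 48 genes. That mean leaves out the library picked for being low in these genes, so for most of them it lies higher by construction. In siLRWD1-5 libraries 36, 46 and 45 genes were below that mean, with medians of -0.25, -0.40 and -0.31 in log2(CPM + 0.5). In siLRWD1-6 libraries 42, 46 and 44 genes were below it, with medians of -0.20, -0.27 and -0.22. Scrambled replicate 2 had 47 below it and a median of -0.56, lower than any library with an LRWD1 siRNA. Over all genes the corresponding medians lay between -0.01 and 0.01. How many of all genes lay below that mean was not counted, so the counts above have no background beside them.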

How the data were processed

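The authors deposited raw read counts per gene symbol for 9 RNA sequencing libraries, which were not normalized. The submitters' processing notes name HTSeq 0.5.4p3, TopHat2 2.0.10 and bcl2fastq 1.8.4 and the build hg19. The sources used here do not state the annotation or the strand and counting settings, and the TruSeq v2 kit named in the labels does not mark strand, so reads of overlapping genes cannot be told apart.

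The counts were filtered with filterByExpr, which left 13648 of 23368 symbols, given TMM factors and fitted in edgeR 4.0.16 (R 4.3.3; robust quasi-likelihood fit, all 9 libraries, group as the only term). Adjustment (Benjamini-Hochberg) was over all genes tested, with calls at an adjusted p under 0.05. The SE is the size of the log2 fold change over the root of F. CPM values use the TMM-scaled library totals, except those of the cell type markers, which use the plain totals. Total counts were 11971179 to 15674452 per library, which limits the precision of genes with few reads, beside the spread between libraries.

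The 48 genes, their roles and the 5 gene lists were chosen with earlier results of these data known. Any of the 48 may be named. Values of every library are given for up to 12 genes per direction past the threshold by smallest p against scrambled and up to 6 between the siRNAs, for MCM2 to MCM7, PCNA, RRM1, RRM2, TK1 and TYMS, and for the gene with the smallest p in a role without these. From each list up to 4 genes past the threshold are named. POLD2 was shown in every library after its values were seen.

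The labels give the libraries of every group as series 1 to 3, and these numbers were taken as the experiments in every group. Deviations from the group means correlated between same-numbered libraries at 0.28, 0.40 and 0.13 for siLRWD1-5 and scrambled. They correlated at 0.19, 0.25 and 0.11 for siLRWD1-6 and siLRWD1-5, and at 0.31, 0.26 and 0.03 for siLRWD1-6 and scrambled. A low correlation does not show that libraries came from different experiments. The main fit has no term for the experiment. The block stands with the alternatives, and calls that it changes are given beside the results or with the alternatives.

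Alternatives were RLE factors, library size alone, no filter, a floor of 1 CPM in 3 libraries, limma-voom (limma 3.58.1), DESeq2 1.42.0, the block, only the groups compared, only the libraries numbered 1 and 3, and leaving out each library. Exon overlap and transcript lengths came from GENCODE v29 (GRCh38), matched by symbol. Promoters came from RefSeq (GRCh38.p14) and were searched on both strands. No coordinate of the hg19 counts was used. Figures were drawn with matplotlib 3.10.9.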

Additional observations from a re-analysis of the deposited data

How the results depend on the processing

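The counts of genes called moved with the libraries used. Shares by direction over all genes were computed only with all libraries and without scrambled replicate 2. The counts of the other settings have no such background beside them and are no result about the 48 genes. Against scrambled, siLRWD1-5 lowered 13 of the 48 genes with all libraries, 8 with only the groups compared, 29 with only the libraries numbered 1 and 3, and 7 to 32 when each library was left out in turn. Higher calls were 0, but 1 (POLD2) with RLE factors, with library size alone and with DESeq2, 2 with the replicate block, and 0 to 1 with each library left out. For siLRWD1-6 the 4 lower genes became 2 with only the groups compared, 29 with only the libraries numbered 1 and 3 and 1 to 29 with each library left out, and the higher calls were 1 with the block and 0 to 1 with each library left out. All genes called for siLRWD1-6 numbered 2265, 3579 in the libraries numbered 1 and 3, and 1248 to 3953 with each library left out. For siLRWD1-5 they numbered 5292, 4326 with only the groups compared, 6462 in the libraries numbered 1 and 3, and 4189 to 6790 with each left out. Between the siRNAs they numbered 5919, 7458 with only the siRNA groups, 6682 in the libraries numbered 1 and 3, and 4685 to 7551 with each left out. Between the siRNAs the 3 lower genes became 5 with the block, 8 with only the siRNA groups, 9 in the libraries numbered 1 and 3 and 1 to 7 with each library left out, and the 7 higher genes 3 with library size alone, 20 with only the siRNA groups, 18 in the libraries numbered 1 and 3 and 3 to 21 with each library left out. The 13 lower genes included all 9 called with library size alone and the 11 called with no filter, and all 13 were among those called without scrambled replicate 2.

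Signs were followed through the settings only for the genes chosen by rule in each comparison. Among these they turned only in genes that the fit of all libraries did not call. Other genes of the 48 turned too. Without scrambled replicate 2, genes of the 48 below 0 rose from 35 to 44 with siLRWD1-5 and from 34 to 44 with siLRWD1-6. Over all genes tested, those below 0 went from 6903 of 13648 to 6961 of 13868 with siLRWD1-5. With siLRWD1-6 they went from 7276 to 7003 of the same totals. The signs that turned among the genes followed were these. With siLRWD1-5, the libraries numbered 1 and 3 gave -0.040 for MCM6, -0.13 for MCM7 and -0.0011 for MCM8, and leaving out each library gave -0.11 to 0.20 for MCM6, -0.18 to 0.14 for MCM7, -0.038 to 0.22 for MCM8, -0.0056 to 0.30 for TK1 and -0.30 to 0.046 for RRM2. With siLRWD1-6, limma-voom gave 0.0055 for MCM6, the libraries numbered 1 and 3 gave -0.16 for MCM7 and -0.16 for LIG1, and leaving out each library gave -0.19 to 0.066 for MCM3, -0.21 to 0.091 for MCM6, -0.16 to 0.14 for MCM7, -0.16 to 0.19 for LIG1 and -0.29 to 0.0084 for TK1. The lower end of each of these ranges came from leaving out scrambled replicate 2 and the upper end from leaving out scrambled replicate 1 or 3. The cause was not tested. In the siLRWD1-6 comparison with scrambled the block left its 4 lower genes and added POLD2 as higher (0.18, adjusted p = 0.045). Apart from the calls given beside the results, the block changed no other call among the 48 genes. At 3 libraries per group, small differences in genes as low as CCNE2 are limited by the spread between libraries, to which counting error adds. The SD of CCNE2 was 28.1% of the mean in siLRWD1-5 libraries, 23.0% in siLRWD1-6 libraries and 16.1% in scrambled libraries.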
